A study of Caenorhabditis elegans with 2 samples.

Results

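Distal intergenic peaks away from tRNA genes are the binding sites of D1046.2 whose summits lay between the protein-coding genes of Caenorhabditis elegans and outside their promoter windows. They were taken from the conservative list of peaks, the shorter of the lists that combine both replicates (1546 peaks, against 1641 in the optimal list). A peak was a member when its summit lay outside every protein-coding gene, outside the window from 500 bp upstream to 100 bp downstream of every protein-coding 5′ end, and more than 500 bp from any tRNA gene. Of the 1546 peaks, 367 met these conditions (23.7%, 95% Wilson interval 21.7 to 25.9). Of the others, 360 lay in a promoter window, 562 in a gene body and 257 near a tRNA gene.

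The peaks came from chromatin immunoprecipitation and sequencing (ChIP-seq) of whole worms of strain OP397 at the L4 larval stage, aged 50 hours, in 1 group of 2 biological replicates. The worms had been synchronized as starved L1 larvae after bleaching. The strain carries the array wgIs397, in which D1046.2 from a genomic clone is fused to TY1, EGFP and 3xFLAG, with unc-119(+) on an unc-119(tm4063) background, and an antibody to the green fluorescent protein pulled the fusion down. With 1 group there was no comparison between conditions, the control library was not analysed here, and the read depth is unknown. Because whole animals were used, the tissue in which a site was bound cannot be told from these data.

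In the compact worm genome most regulatory DNA lies directly upstream of genes, and distal elements such as enhancers are found in the longer intergenic spaces, in either orientation to the genes beside them. Many worm transcripts are trans-spliced to a short leader, so that the annotated 5′ end of a gene can lie downstream of the place where transcription starts. Intergenic space also holds genes for small noncoding RNAs, their decayed copies and dispersed repeats. A tRNA gene is recognised by RNA polymerase III through sequences inside it, the A box and the B box, which copies of the gene can keep.

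Many of the strongest distal peaks shared a stretch of sequence with other members, in several families with a different stretch in each. Within 100 bp of the summit, 93 of the 367 members (25.3%) shared a run of at least 20 identical bases, on either strand, with another member whose window did not overlap theirs. The same count was 66 of 360 promoter peaks (18.3%), 76 of 562 gene body peaks (13.5%) and 248 of 257 peaks near tRNA genes (96.5%). Of the 25 strongest members 15 were in such a family (60%), against 22 of the 167 weakest (13.2%). The 8 families with at least 4 members, numbered by their strongest member, held 51 members. The families were formed after the sequences had been seen, and members of a family share their source and are not independent sites.

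Family 3 held 6 of the 37 strongest members, on 3 chromosomes, and their signals ran from 189.6 to 424. The signal is the peak caller's value as deposited, and its scale was not given in the sources used here. The copies were nearly identical around a 19-base run, which is in capitals. The sequences were read from the RefSeq assembly WBcel235 (ce11), and their case here is not that of the assembly. They are shown because places far apart in the genome with nearly the same sequence each carried a peak with a high pooled signal. The copy by ari-1.4 had 219 pooled and 107 in replicate 2, and no region of replicate 1's own list of candidates overlapped it. The label gives the gene with the nearest 5′ end.
K07D4.2, chrII:4048028-4048096, minus strand: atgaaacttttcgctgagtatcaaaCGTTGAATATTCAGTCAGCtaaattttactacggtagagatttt
ari-1.4, chrIV:15530707-15530775, plus strand: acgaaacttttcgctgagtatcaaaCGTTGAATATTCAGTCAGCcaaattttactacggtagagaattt

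Within 100 bp of their summits the strongest members shared shorter stretches across family borders. The 8 bases CTACGGTA, on either strand, were present in 8 of the 25 strongest members (32%) and in 10 of all 367 (2.72%). They were present in 0.486% of the distal candidates that did not pass, 3.33% of promoter peaks and 0.712% of gene body peaks. CGTTGAAT was present in 7 of the 25 strongest, among them the peaks beside K08F11.1 and rpa-2, and in 10 of all members (2.72%). It was present in 0.637% of the candidates that did not pass, 2.5% of promoter peaks and 1.42% of gene body peaks. Both were picked by eye from the printed families, so their shares describe the choice.

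The 3 strongest members are shown from 100 bp before to 100 bp after the summit, which leaves out the outer bases of each peak, with the stretch within 50 bp of the summit in capitals. The member by eel-1 belongs to family 1, and the second K08F11.1 member to family 2.
eel-1, chrIV:3050817-3051017, plus strand: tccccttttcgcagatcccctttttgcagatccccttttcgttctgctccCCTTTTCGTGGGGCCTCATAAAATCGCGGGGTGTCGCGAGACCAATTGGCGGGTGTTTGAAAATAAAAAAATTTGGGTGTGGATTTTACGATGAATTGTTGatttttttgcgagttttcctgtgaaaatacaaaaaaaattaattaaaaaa
K08F11.1, chrIV:4725505-4725705, plus strand: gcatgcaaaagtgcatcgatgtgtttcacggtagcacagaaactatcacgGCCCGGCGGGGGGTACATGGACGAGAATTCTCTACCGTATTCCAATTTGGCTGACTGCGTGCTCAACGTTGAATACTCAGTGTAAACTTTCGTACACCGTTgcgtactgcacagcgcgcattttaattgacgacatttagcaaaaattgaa
K08F11.1, chrIV:4727930-4728130, plus strand: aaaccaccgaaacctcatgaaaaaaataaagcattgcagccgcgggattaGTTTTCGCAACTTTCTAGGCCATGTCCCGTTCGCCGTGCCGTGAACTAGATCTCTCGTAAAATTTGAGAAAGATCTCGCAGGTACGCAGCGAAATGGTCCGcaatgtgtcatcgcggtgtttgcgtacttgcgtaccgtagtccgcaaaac

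Family 1 held 4 members with signals from 82.2 to 763, all of them soft-masked over at least 50% of the bases around the summit (lower case in the assembly, which marks repeats). Its shared run of 20 bases lies in a stretch rich in repeated CCCCTTTT, shown in capitals for each copy.
Y62F5A.12, chrII:11534931-11535000, plus strand: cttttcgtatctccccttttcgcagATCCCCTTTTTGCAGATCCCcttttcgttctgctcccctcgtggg
Y61A9LA.12, chrV:4552902-4552971, minus strand: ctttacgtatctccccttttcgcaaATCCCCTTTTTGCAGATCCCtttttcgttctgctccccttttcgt

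Family 2 held 8 members on 4 chromosomes, with signals from 94.7 to 712, and 3 of them had a pseudogene within 500 bp. A run of 15 bases, in capitals, was found in 5 of the 8, and 4 of these are shown.
K08F11.1, chrIV:4728066-4728130, minus strand: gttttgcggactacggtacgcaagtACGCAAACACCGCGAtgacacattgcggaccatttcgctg
K08F11.1, chrIV:4720623-4720675, plus strand: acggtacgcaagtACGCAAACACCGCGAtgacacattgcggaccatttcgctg
K08D10.11, chrIV:4184862-4184921, plus strand: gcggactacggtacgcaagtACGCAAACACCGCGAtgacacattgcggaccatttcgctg
F53E10.5, chrV:2600714-2600778, minus strand: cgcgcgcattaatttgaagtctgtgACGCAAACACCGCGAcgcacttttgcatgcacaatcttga

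Family 4 lay at genes for SL2 RNA, the donor of the trans-spliced leader that caps the downstream mRNAs of worm operons. Its 4 members lay within 500 bp of annotated snRNA genes, and the strongest 3 lay 4 bp from sls-2.4, 15 bp from sls-2.2 and 54 bp from sls-2.1, with signals of 216, 207 and 197. The 4 members accounted for all 4 stretches of the genome that matched them. The 40-base run in capitals was common to all, and 3 copies are shown in the direction of the gene.
ins-13, chrII:5543577-5543666, plus strand: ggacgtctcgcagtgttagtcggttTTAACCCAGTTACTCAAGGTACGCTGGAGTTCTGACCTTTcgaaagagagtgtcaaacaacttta
ZK1248.17, chrII:5844844-5844911, plus strand: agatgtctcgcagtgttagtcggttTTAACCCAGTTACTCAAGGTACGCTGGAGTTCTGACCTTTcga
ins-13, chrII:5544228-5544294, minus strand: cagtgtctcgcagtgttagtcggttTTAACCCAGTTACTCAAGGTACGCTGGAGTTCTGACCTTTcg

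Family 5 carried a sequence of the form of a tRNA A box. Its 10 members lay on 5 chromosomes, with signals from 84.2 to 193, and all 10 held the same 16 bases, in capitals. No annotated tRNA gene lay within 500 bp of any of them, by the choice of members, and 1 had a pseudogene there. In 5 of the 10, a relaxed B box core, GTTCNANNC, followed the A box core TGGCNNAGT on the same strand 20 to 60 bases further on. The 5 strongest copies are shown. That by sdz-25 had 159 pooled and 99.4 in replicate 2, and no region of replicate 1's own list of candidates overlapped it.
nhr-277, chrIV:2740194-2740259, plus strand: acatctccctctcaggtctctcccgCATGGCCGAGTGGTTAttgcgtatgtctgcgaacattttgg
pdfr-1, chrIII:6661823-6661888, minus strand: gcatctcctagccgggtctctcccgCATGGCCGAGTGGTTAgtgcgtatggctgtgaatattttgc
sdz-25, chrIV:8412702-8412767, minus strand: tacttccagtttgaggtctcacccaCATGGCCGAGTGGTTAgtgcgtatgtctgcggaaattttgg
cdc-25.2, chrV:1561357-1561422, plus strand: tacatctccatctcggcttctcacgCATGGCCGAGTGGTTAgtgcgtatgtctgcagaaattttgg
aagr-2, chrII:4928519-4928584, minus strand: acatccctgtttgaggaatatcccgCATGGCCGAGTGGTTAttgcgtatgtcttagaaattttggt

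Family 6 held 5 members with signals from 82.9 to 151, 4 of them on chromosome V, and none was soft-masked over 50% of the bases around the summit. The 40-base run in capitals was common to all 5, of which 3 are shown.
ent-3, chrV:14237668-14237757, plus strand: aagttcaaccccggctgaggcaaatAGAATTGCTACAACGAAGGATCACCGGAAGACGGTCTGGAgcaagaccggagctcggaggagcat
F57A10.2, chrV:15767508-15767597, minus strand: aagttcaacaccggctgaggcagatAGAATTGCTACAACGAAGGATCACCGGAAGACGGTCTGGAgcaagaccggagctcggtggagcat
ftn-1, chrV:7548642-7548731, minus strand: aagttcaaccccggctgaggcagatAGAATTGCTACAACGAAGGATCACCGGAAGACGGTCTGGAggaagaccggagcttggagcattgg

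Family 8 was a tandem repeat. Its 10 members were soft-masked throughout or nearly so, with a mean GC content of 60.2% (SD 2.91) around the summit, and had signals from 66.3 to 126. Of these, 4 lay within 3148 bp on chromosome II between T02H6.3 and T02H6.11. The repeated unit is visible in 3 of the copies, with the 27-base run common to all 10 in capitals.
T02H6.11, chrII:696878-696954, minus strand: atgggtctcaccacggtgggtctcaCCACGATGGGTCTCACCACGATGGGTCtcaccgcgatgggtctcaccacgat
F49H12.7, chrX:2058668-2058744, plus strand: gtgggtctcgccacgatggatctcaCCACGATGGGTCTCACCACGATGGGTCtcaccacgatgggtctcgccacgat
Y37A1A.2, chrIV:13922480-13922556, minus strand: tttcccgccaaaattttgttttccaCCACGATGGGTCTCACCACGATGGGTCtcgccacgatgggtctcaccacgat

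Outside family 4, only some copies of each family carried a peak. The windows of the members were matched to the genome, and a stretch of at least 60 bp with an E-value of at most 1e-05 was counted as a copy. Of 19 copies of family 3, 11 held the summit of a conservative peak of any class (57.9%), and 5 more held a candidate region that did not pass. Family 6 had 22 copies, 10 with a summit (45.5%), and family 2 had 51, 16 with a summit (31.4%). Families 1 and 5 had 87 and 86 copies, of which 17 and 18 held a summit. The repeats of families 7 and 8 had 357 and 187 copies, of which 6 (1.68%) and 12 (6.42%) held a summit. The handling of reads that match several copies was not given in the sources used here. Its part in these counts was not tested.

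**Figure D1:**
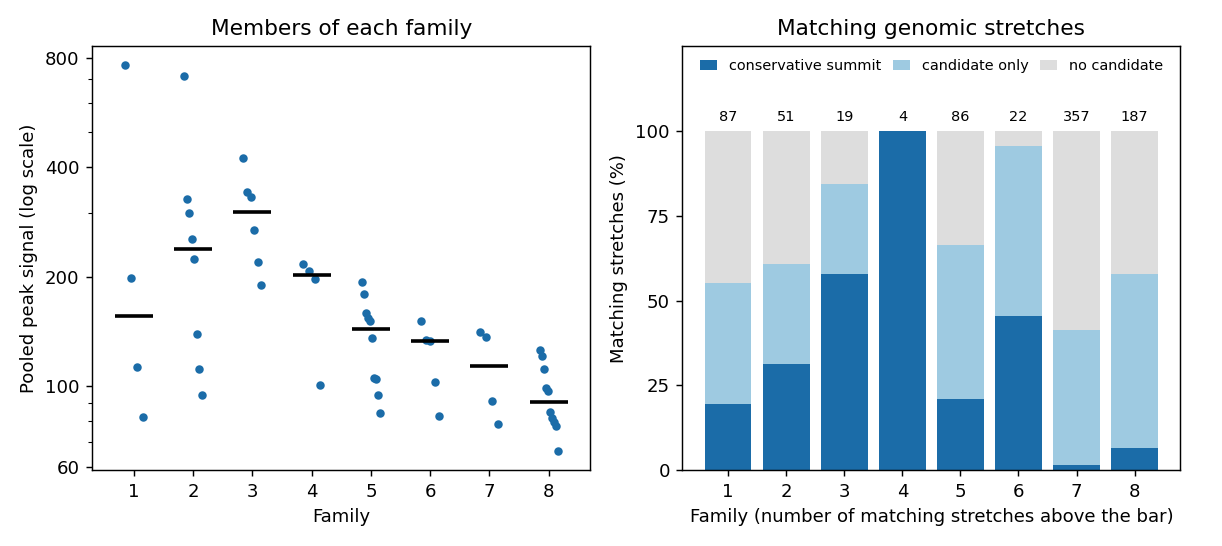
Left, pooled peak signal (log scale) of each member of the 8 families, with the median as a bar; right, the share of genomic copies of each family that held a conservative summit, only a candidate region, or neither, with the number of copies above the bar. Family 3 has the highest median, 300.2, and families 7 and 8 have the lowest shares of copies with a summit.

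Distal candidates entered the conservative list about as often as candidates in general. The ranked list behind the conservative list holds 106921 candidate regions, of which 1546 passed (1.45%). Of 26267 distal candidates 367 passed (1.40%, 95% Wilson interval 1.26 to 1.55). The share was 2.37% of 15193 promoter candidates, 0.869% of 64701 gene body candidates and 33.8% of 760 candidates near a tRNA gene. Passing here means being in the conservative list, which is not the same as reaching its lowest score, 830. A further 76 candidates reached that score and overlapped no conservative peak, and 62 of these were distal. The intervals for distal and promoter candidates did not overlap, and neighbouring regions are not independent. These intervals, like all others here, cover counting error only.

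The pooled signal of the members had a median of 94.1, with quartiles of 83.4 and 129. Promoter peaks had a median of 106, peaks near tRNA genes 115 and gene body peaks 87.8, and the distal candidates that did not pass 26.6. The members reached 763 and the promoter peaks 3151. Of the 25 strongest conservative peaks 3 were members (12%, interval 4.17 to 29.96), the lowest share among the groups of ranks counted. The highest was 15 of 50 (30%, interval 19.1 to 43.8), among peaks ranked 51 to 100. The share of members among all conservative peaks, 23.7%, lay inside both intervals and inside that of every other group.

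**Figure D2:**
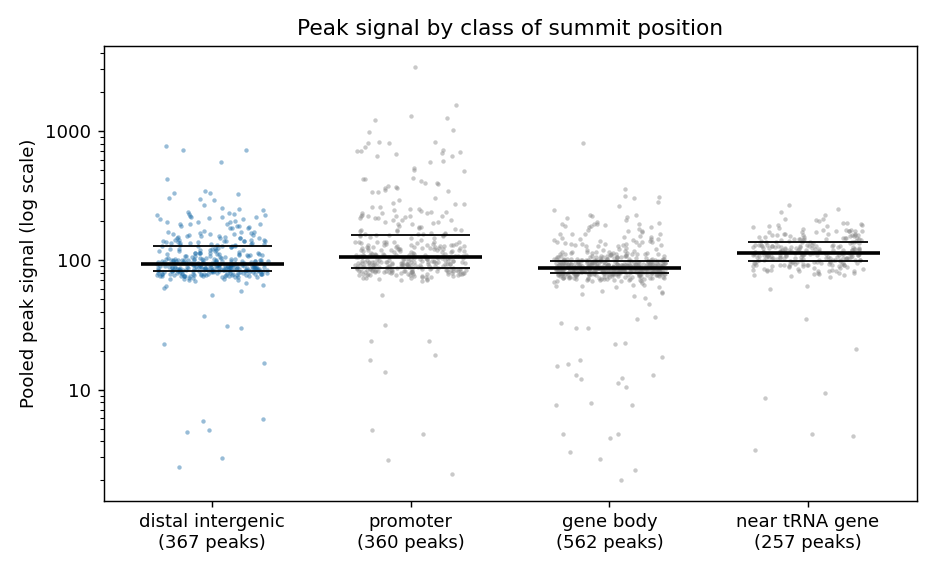
Pooled signal (log scale) of every conservative peak by the class of its summit, with the median as a thick bar and the quartiles as thin bars. Distal intergenic peaks have a median of 94.1, between gene body peaks (87.8) and promoter peaks (106), and 6 of them lie under a signal of 10.

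The strongest member stood at chrIV:3050760-3051016, in the space between the divergent genes eel-1, a gene for a ubiquitin ligase of the HECT type, and ivph-3. It had a pooled signal of 763, with 444 in replicate 1 and 389 in replicate 2, and its summit was 813 bp from the 5′ end of eel-1. A much weaker member of family 8, with a signal of 79.9, lay in the same space, 732 bp from the 5′ end of ivph-3. Both replicates listed the strong peak, and neither listed the weak one.

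The space around K08F11.1 on chromosome IV held 3 of the 11 strongest members. Those downstream of the gene, at chrIV:4725505-4725730 and chrIV:4727926-4728145, had pooled signals of 719.7 and 712. Their signals were 421 and 439 in replicate 1 and 295 and 274 in replicate 2. An annotated pseudogene, WBGene00023323, lies between them, 359 bp from the first summit and 67 bp from the second. The third, at chrIV:4720635-4720759, was upstream of K08F11.1 with 184 in replicate 1 and 116 in replicate 2. All 3 were listed by both replicates and were higher in replicate 1.

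The strongest member on chromosome I, at chrI:4769537-4769754, lay 649 bp upstream of rpa-2, a gene for a subunit of the single-stranded DNA binding protein RPA. Its pooled signal was 579, with 347 in replicate 1 and 237 in replicate 2. On chromosome II it was the family 3 copy at chrII:4047985-4048142, between K07D4.2 and gadr-4, with 424 pooled, 234 in replicate 1 and 199 in replicate 2. On chromosome III it lay 531 bp upstream of K12H4.5, at chrIII:8043878-8044027, with 330.0 pooled, 169 in replicate 1 and 164 in replicate 2. These 3 were listed by both replicates, with the value of replicate 1 the higher in each.

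On chromosome V the strongest member, at chrV:15873800-15874095, fell between the 3′ ends of the chemoreceptor gene str-56 and the nuclear hormone receptor gene nhr-102, 22 bp from the snoRNA gene T06C12.16. It had 295 pooled, 132 in replicate 1 and 165 in replicate 2. On chromosome X it lay between F20B6.9 and hpk-1, a gene for a homeodomain-interacting protein kinase, at chrX:4209128-4209423, with 245 pooled, 120 in replicate 1 and 126 in replicate 2. Here replicate 2 was the higher in both. The other named members of the 20 strongest lay beside zip-11 (a bZIP factor gene), Y116A8A.150, F40E3.3, W03C9.1, C46C2.7 near wnk-1 (a kinase gene), K08D10.11, F58D12.3, pamn-1, nlp-4 (a neuropeptide gene), nspc-17 and cmd-1 (calmodulin), with signals from 227 to 342. Of the 20 strongest, 19 were listed by both replicates, and the member by nlp-4 was listed by replicate 2 alone.

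Strong members were found by each replicate on its own more often than weak ones. Strength here is the pooled signal of the same 2 libraries, so this order was largely set by the ranking. Of all members 127 (34.6%, interval 29.9 to 39.6) overlapped a peak of replicate 1's own list by at least 1 bp, 104 (28.3%, interval 24.0 to 33.1) one of replicate 2's, and 73 (19.9%) one of each. Neither list held 209 of them (56.9%). Of the 25 strongest members 22 were in both lists (88.0%), of those ranked 26 to 100 45 of 75 (60%), and of those ranked 201 to 367 3 of 167 (1.80%). The optimal list, the other list that combines both replicates, held a peak that overlapped 292 of the members (79.6%, interval 75.1 to 83.4) and 86.1% of promoter peaks. The lists of single replicates were shorter, 619 and 463 peaks, which also lowers these shares. Promoter peaks were in replicate 1's list more often (51.1%, interval 46.0 to 56.2) and in replicate 2's about as often (31.9%, interval 27.3 to 36.9).

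In each replicate's ranked list, a region overlapped 361 of the members in replicate 1 and 365 in replicate 2. The median of that signal was 49.4 (quartiles 42.1 and 67.1) in replicate 1 and 47.0 (quartiles 41.02 and 64.2) in replicate 2. The value of replicate 1 was the higher in 202 of the 360 members with both values, and in 35 of the 49 of these among the 50 strongest. Both values were within a factor of 2 of each other in 352 of the 360, in a set where most values span a narrow range. The order of the members was less alike than this count: the rank correlation (Spearman) was 0.442 over the 360 members and 0.164 over the 311 outside the 50 strongest, against 0.602 over 356 promoter peaks. These correlations describe regions of the same 2 libraries, and the members had been chosen by a score that uses both.

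**Figure D3:**
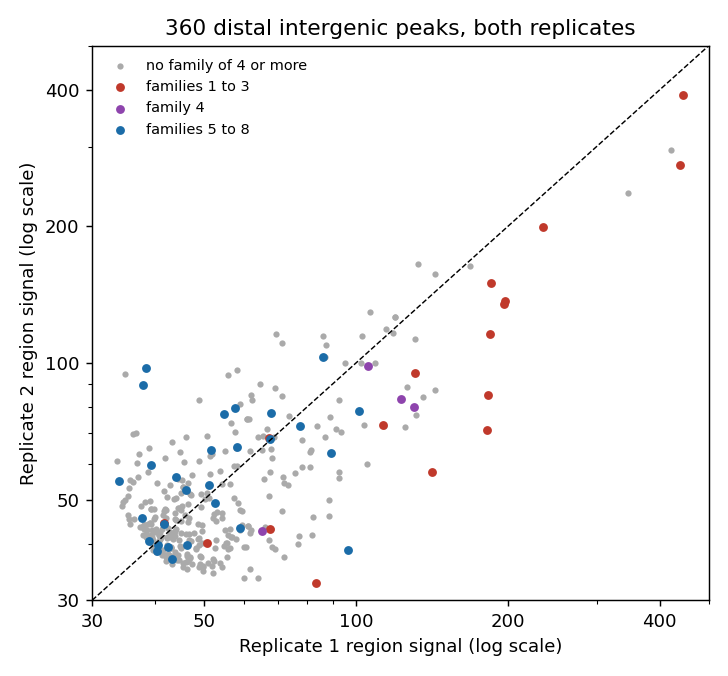
Signal of each member in replicate 1 against replicate 2 (both log scales), for the 360 members with a region in both, with the line of equality dashed. The 4 highest members in replicate 1 lie below the line, where replicate 1 is the higher. Of these, 2 belong to families 1 and 2, in red. The other 2, beside K08F11.1 and rpa-2, belong to no family of at least 4 members, in grey. Most members lie near the lower left corner.

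Members lay in intergenic spaces with a median length of 4979 bp, against 6220 bp for the distal candidates that did not pass. The distance from summit to the nearest protein-coding 5′ end had a median of 1837 bp (quartiles 922 and 3555), and to the nearest gene body 929 bp. For those candidates the medians were 2170 and 1400 bp. The 5′ end was within 1000 bp for 98 members, of which 5 lay within 500 bp, beyond the 3′ end of a short gene. At the other end, 8 members (2.18%) were more than 10000 bp away, as were 2.08% of the candidates that did not pass.

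The members were nearer to a 3′ end than to a 5′ end in 211 cases (57.5%, interval 52.4 to 62.4), against 47.4% of the candidates that did not pass (interval 46.8 to 48.0). A 3′ end lay within 500 bp of 96 members (26.2%, interval 21.9 to 30.9), against 15.7% of those candidates. The neighbouring genes pointed the same way around 201 members (54.8%), away from each other around 90 (24.5%, interval 20.4 to 29.2) and towards each other around 74 (20.2%, interval 16.4 to 24.6). For the candidates the shares were 55.6%, 29.5% and 14.7%. The intervals did not overlap for the space between 3′ ends, where the members' share was the higher, and they did overlap for the space upstream of both genes.

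The member farthest from a gene was at chrX:10252-10547, 32232 bp from Y73B3A.1, with a signal of 102. The next were at chrX:258620-258915 near Y108F1.5 (14162 bp, signal 97.5), at chrV:14762923-14763218 near haf-7, an ABC transporter gene (10187 bp, 79.3), and at chrIII:6661709-6662004 near pdfr-1, which encodes a neuropeptide receptor (9774 bp, 179.7). At chrX:6253822-6254117, W05H9.4 was 9678 bp away and the signal was 77.6. Only the member by pdfr-1, a copy of family 5, was listed by both replicates, with 101 in replicate 1 and 78.5 in replicate 2. A pseudogene lay within 500 bp of the first 3.

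Members were spread over all 6 chromosomes, with 75 on X, 65 each on I and IV, 56 on V, 55 on II and 51 on III. Chromosome X held 20.4% of the members and 20.6% of the candidates that did not pass, chromosome V 15.3% and 21.6%, and chromosome IV 17.7% and 13.99%. Of the members 28.9% (interval 24.5 to 33.7) lay in the middle of 3 equal parts of their chromosome by length, against 24.8% of the candidates and 38.1% of promoter peaks (interval 33.2 to 43.2). Within 1000 bp of each other there were 21 pairs of neighbouring members. The group with the most members was between C30E1.4 and F52G3.8 on chromosome X, where 5 summits lay within 2765 bp with signals from 95.6 to 131. By ins-13 on chromosome II, 3 summits lay within 745 bp with signals from 54.1 to 207.

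Noncoding RNA genes other than tRNA genes lay within 500 bp of 101 members (27.5%, interval 23.2 to 32.3), against 14.4% of the distal candidates that did not pass (interval 13.9 to 14.8) and 21.9% of promoter peaks (interval 18.0 to 26.5). Small nucleolar RNA (snoRNA) genes, whose products guide the modification of ribosomal RNA, were near 21 members (5.72%, interval 3.77 to 8.59) and near 0.456% of those candidates (interval 0.381 to 0.545). They were near 5.28% of promoter peaks. The signal of the 21 had a median of 140.3 and ran from 71.7 to 306, and the median distance from summit to gene was 45 bp. Of 105 snoRNA genes that lie in distal space by the same rule, 21 had a member within 500 bp (20%) and 75 had a candidate region.

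The strongest snoRNA member, at chrII:11960763-11960905, was 45 bp from W03C9.9, with 306 pooled, 143 in replicate 1 and 157 in replicate 2. The second was the peak by str-56. The third, at chrI:5706865-5707160, lay 33 bp from T19B4.8 in the space between pamn-1 and lim-7, a LIM homeobox gene, with 236 pooled, 114.5 in replicate 1 and 118.7 in replicate 2. All 3 were listed by both replicates, and replicate 2 was the higher in each.

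Small nuclear RNA genes were near 7 members (1.91%, interval 0.927 to 3.88) and near 0.174% of the candidates that did not pass (interval 0.130 to 0.232). The strongest were the SL2 RNA genes of family 4: sls-2.4, with 216 pooled, 123 in replicate 1 and 83.2 in replicate 2, sls-2.2, with 207, 106 and 98.6, and sls-2.1, with 197, 130.2 and 79.8. Of 53 snRNA genes in distal space 6 had a member within 500 bp (11.3%). The 3 summits by ins-13 lay within 745 bp, so the 7 members are not independent sites, and their lowest signal was 22.45.

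MicroRNA genes were near 7 members (1.91%) and 0.483% of the candidates that did not pass. The strongest was 3 bp from cel-mir-4936, with a signal of 144, and the next was 106 bp from cel-mir-51, with 141. The third was 189 bp from cel-mir-80, with 128 pooled, 81.7 in replicate 1 and 41.7 in replicate 2. Of 134 microRNA genes in distal space 7 had a member within 500 bp (5.22%), and 85 had a candidate region.

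Genes of the general class ncRNA were near 73 members (19.9%, interval 16.1 to 24.3), 37 of which had the summit inside the gene, against 10.4% of the candidates. Their median signal was 98.5, and the strongest was one of the K08F11.1 peaks, 151 bp from WBGene00195021. Long intergenic RNA genes were near 7 members (1.91%, interval 0.927 to 3.88), against 1.15% of the candidates (interval 1.03 to 1.29), and the intervals overlapped. The strongest of these members was inside linc-128 between cutl-22 and cmd-1, with a signal of 227. Pseudogenes were near 26 members (7.08%, interval 4.88 to 10.2), fewer than among the candidates (15.7%, interval 15.2 to 16.1). Genes for piRNAs were near 4 members (1.09%, interval 0.425 to 2.77), against 2.24% of the candidates (interval 2.06 to 2.42). Ribosomal RNA and antisense RNA genes were near 0 of the 367, which allows a share of up to 1.04% by the Wilson interval. Members with no noncoding gene or pseudogene within 500 bp numbered 244, and their median signal was 90.7.

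**Figure D4:**
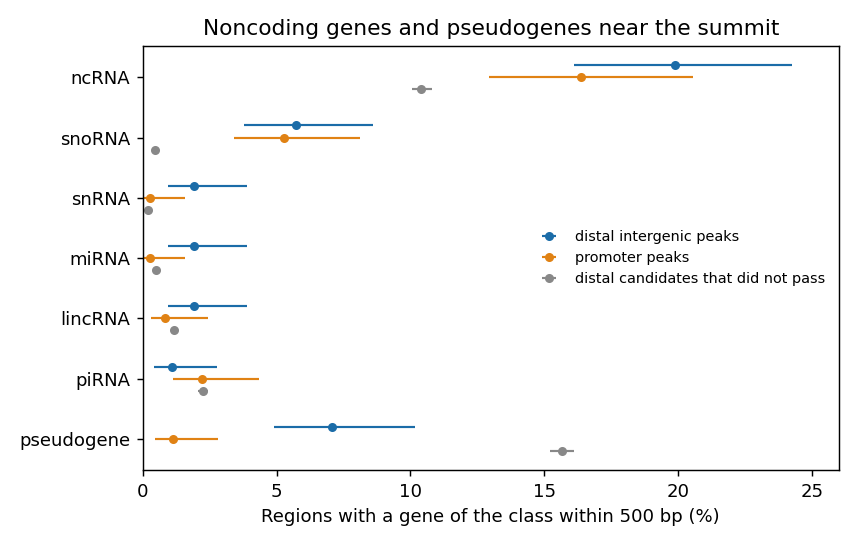
Share of regions with a gene of each class within 500 bp of the summit, for distal intergenic peaks, promoter peaks and distal candidates that did not pass, with 95% Wilson intervals. For ncRNA, snoRNA, snRNA and miRNA genes the members' interval lies above that of the candidates, and for pseudogenes it lies below.

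The B box core GTTCGANNC was found within 50 bp of the summit in 11 members (3.00%, interval 1.68 to 5.29), on either strand. It was present in 0.545% of windows of the same length centred 250 bp away, in 0.969% of the candidates that did not pass, in 0.833% of promoter peaks, in 1.60% of gene body peaks and in 49.4% of peaks near annotated tRNA genes. The longer form GGGTTCGA was present in 1.63% of members. The A box core followed by the relaxed B box core was present in 15 members (4.09%, interval 2.49 to 6.63), 0.398% of the candidates (interval 0.328 to 0.482), 0.556% of promoter peaks, 2.85% of gene body peaks (interval 1.76 to 4.57) and 7.0% of peaks near tRNA genes. The intervals for members and gene body peaks overlapped. Together 22 members had the B box core or this pair, and 4 had both. The A box search was chosen after the families had been seen.

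Of the 11 members with a B box core, 4 had a snoRNA gene within 500 bp, 1 a microRNA gene and 1 a pseudogene, and 5 had none of the noncoding classes. The strongest, named for the nearest 5′ end, were by W03C9.1 (306 pooled), zfr-1 (165), Y53G8AL.4 (144), cec-4 (140.3) and F30H5.3 (134). The cec-4 member lay between clec-180 and F32E10.5, with the 5′ end of cec-4 1634 bp away. The F30H5.3 member lay 144 bp from unc-45 and 9448 bp from the 5′ end of F30H5.3. The member by Y53G8AL.4 had 81.0 in replicate 1 and 63.7 in replicate 2, and the member by cec-4 had 75.8 and 57.2. The stretches within 50 bp of the summit are shown for 6 of them, each read in the direction of the B box. The core, in capitals, has the letters of a tRNA element, and whether it acts as one was not tested. No tRNA gene is annotated within 500 bp, by the choice of members.
W03C9.1, chrII:11960803-11960903, plus strand: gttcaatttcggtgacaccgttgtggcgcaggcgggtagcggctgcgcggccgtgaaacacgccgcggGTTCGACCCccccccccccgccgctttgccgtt
Y53G8AL.4, chrIII:3249213-3249313, plus strand: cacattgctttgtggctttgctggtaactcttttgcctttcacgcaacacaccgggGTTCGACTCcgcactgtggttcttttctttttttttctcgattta
cec-4, chrIV:7574034-7574134, plus strand: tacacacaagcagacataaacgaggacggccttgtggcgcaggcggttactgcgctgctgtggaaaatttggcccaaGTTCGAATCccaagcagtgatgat
F30H5.3, chrIII:502719-502819, plus strand: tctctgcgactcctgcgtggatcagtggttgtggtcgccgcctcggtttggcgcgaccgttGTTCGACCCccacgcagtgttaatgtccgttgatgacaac
ckr-2, chrIII:2030901-2031001, minus strand: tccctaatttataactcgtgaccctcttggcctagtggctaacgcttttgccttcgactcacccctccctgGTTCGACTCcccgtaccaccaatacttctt
mrpl-40, chrIII:89281-89381, minus strand: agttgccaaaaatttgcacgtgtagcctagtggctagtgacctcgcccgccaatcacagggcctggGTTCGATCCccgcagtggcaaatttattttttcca

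The DNA at the summits was rich in G and C. Within 50 bp of the summit the members had a mean GC content of 49.4% (SD 9.02, n = 367), and windows of the same length centred 250 bp away, on alternating sides, had 35.8% (SD 9.29). The summit was the richer in 82.8% of members. The candidates that did not pass had 39.3% at the summit and 35.2% in the flank, and promoter peaks, gene body peaks and peaks near tRNA genes had 49.6%, 49.5% and 50.0% at the summit. The 25 strongest members averaged 50.3% (SD 7.62) and the 167 weakest 48.5% (SD 9.27), and the difference was not tested.

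**Figure D5:**
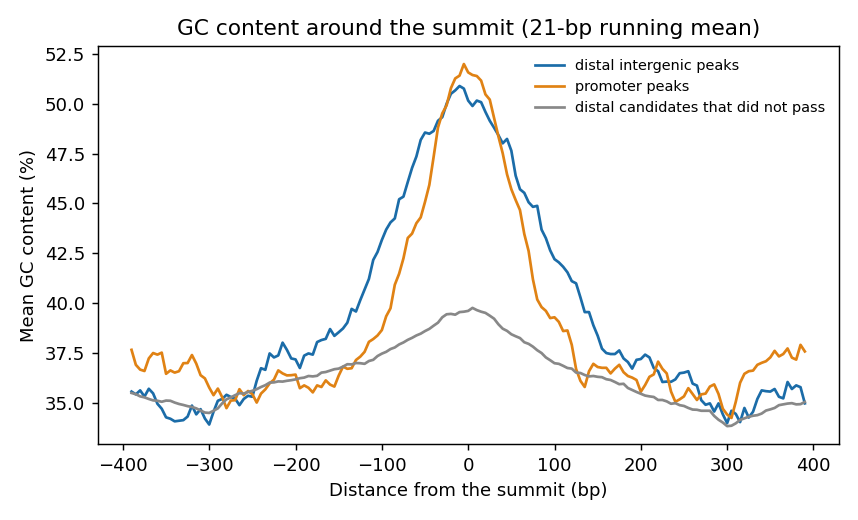
Mean GC content, as a running mean, by distance from the summit for distal intergenic peaks, promoter peaks and distal candidates that did not pass. Distal peaks and promoter peaks rise to a similar height at the summit, and the candidates stay lower.

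Among the 2080 sequences of 6 bases, read on both strands, those found at more summits than flanks were led by ACGCAG, in 39 member summits and 2 flanks, CGCGCA in 38 and 5, GGCCGA in 36 and 4, and GAGCGC in 35 and 4. Copies of a family each count in these numbers. Those found in more flanks were led by AAAAAT, with 71 summits and 179 flanks, and the leading ones were rich in A and T. Of the listed motifs, TATAAA, the TATA box, was in 4.36% of summits and 11.2% of flanks, TTTTTT, which contains the terminator of RNA polymerase III, in 18.5% and 41.4%, and TGATAA, which holds the GATA core, in 3.27% and 10.9%. The E box CACGTG was in 3.27% and 1.91%, GAGAGA in 13.4% and 8.17%, and CCGCCC in 6.27% and 2.18%. At the summits of promoter peaks, CACGTG was in 4.72%, GAGAGA in 14.2% and CCGCCC in 6.67%. There TATAAA was in 1.11%, TTTTTT in 19.2% and TGATAA in 3.61%. The splice acceptor sequence TTTCAG was in 6.27% of member summits, 18.0% of flanks and 14.2% of promoter peak summits. A match describes these letters and is no site. Base composition differed between summits and flanks as well, and its part in these shares was not tested.

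Soft-masked sequence made up at least 50% of the bases around the summit in 63 members (17.2%, interval 13.7 to 21.4), fewer than among the candidates that did not pass (27.8%, interval 27.3 to 28.4) and more than among peaks near tRNA genes (2.33%). Promoter peaks had 11.1% (interval 8.27 to 14.8) and gene body peaks 12.5% (interval 9.98 to 15.4), and both intervals overlapped that of the members. Masking of every base was found in 24 members (6.54%, interval 4.43 to 9.55) and in 5.82% of those candidates, with no lower share among the members. The candidates that did not pass include 62 that reached the lowest score of the list but overlapped neither a conservative nor an optimal peak. The strongest of these were soft-masked over most of their bases. The sources used here do not say whether masked regions had been removed from the lists, and its part in these shares was not tested. Members of the families were masked in 37.6% of cases and the other 274 members in 10.2%. Of the 25 strongest members 1 was masked, the peak by eel-1.

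The genes nearest to the members were counted by family, from their gene symbols. Neuropeptide and insulin genes were nearest to 7 members (1.91%, interval 0.927 to 3.88), among them nlp-4, ins-13, nlp-40 and ins-39, against 1.12% of the distal candidates that did not pass. These 7 are not separate genes: the 3 summits by ins-13 lay within 745 bp and include copies of family 4, at SL2 RNA genes. Chemoreceptor genes, the largest gene group of the worm, were nearest to 7 (1.91%, interval 0.927 to 3.88), among them str-56, sre-23 and srx-13, against 4.78% of those candidates. The other families were each nearest to 5 members or fewer. Nuclear hormone receptor genes, such as nhr-277 and nhr-88, were nearest to 5 members (1.36%), against 1.90% of the candidates. Genes named unc-, twk-, lgc- or acr- were nearest to 5 members (1.36%), against 1.44%, and all 5, such as unc-87 and unc-84, carry the unc- name, which was given for uncoordinated movement and covers proteins of many kinds. Hedgehog-related or molting genes were nearest to 3 (0.817%, against 0.606%). Mitochondrial ribosome genes (mrpl-40, mrpl-36) were nearest to 2 members (0.545%, interval 0.150 to 1.97, against 0.139%), as were histone genes (his-47, his-58; against 0.178%) and F-box genes (fbxb-58, fbxb-101; against 1.5%). Cuticle genes (col-88) were nearest to 1 member (0.272%, against 0.907%), as were detoxification genes (gst-11; against 0.537%). The homeobox list held 1 nearest gene, ceh-43 (0.272%, against 0.857%), and it left out other homeobox genes such as unc-62 and dve-1, each nearest to a member. Genes of the cytosolic ribosome, C-type lectins and chaperones were nearest to 0 members, which allows a share of up to 1.04% by the Wilson interval, and to 0.232%, 0.765% and 0.158% of the candidates.

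A single member lay within 50 kb of the D1046.2 gene itself, which the transgene also carries. It was at chrIV:8923658-8923953, 361 bp from the gene, with a signal of 89.5 pooled and 48.1 in replicate 2, and it had no region in the ranked list of replicate 1. Neither replicate listed it. No member lay within 50 kb of unc-119, the other gene of the array.

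The limit of the promoter window cut through peaks of ordinary strength. The 5 members nearest to it lay 501 bp upstream of C24H10.2 (signal 81.8), 508 bp upstream of ubql-1 (161), 509 bp upstream of ftt-2 (143) and of bcat-1 (85.0), and 512 bp upstream of ephx-1 (82.1). The nearest intergenic peaks on the other side were 493 bp upstream of srh-38 (91.6), 484 bp of sms-3 (127), 482 bp of C17H11.4 (97.2), 480 bp of W07B8.4 (91.7) and 473 bp of hlh-17 (78.5).

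Nearly all of the weakest members shared their replicate regions with a stronger peak. A pooled signal under 60 was found in 13 members, and 12 of these had the same region as a stronger conservative peak in both replicates. The lowest, 2.52 at chrX:4209336-4209631, lay beside the peak by hpk-1, and both were given 120 in replicate 1 and 126 in replicate 2. The pooled values of these 12 were low, and their replicate values were those of the stronger neighbour. Without them, a choice made after seeing the data, the 11 summary values kept within the interval or the spread of the full set, and the median signal was 95.5.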

How the data were processed

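ChIP-seq peaks of 1 group of 2 replicates were analysed. The deposited lists, on ce11, give each peak a signal and a score that the authors deposited. The signal is the peak caller's value, and the score is a scaled IDR (irreproducible discovery rate) value of at least 830 in the conservative list. Lists were made from filtered alignments with a control alignment, per the deposited file notes. The aligner, the peak caller and the limit were not given in the sources used here. Read depth is unknown, so counting error covers regions only. All 1546 conservative peaks recur unchanged in the ranked list of 106921 candidates that served as background.

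Members were chosen from the summit position with Ensembl genes and RefSeq sequence of WBcel235. Members and lists were chosen with earlier results of these data known. A replicate's value is the signal of its own ranked region that overlaps the peak, nearest by summit. Windows reached 50 bp each side of the summit, and flanks were centred 250 bp away. Families were found by runs of 20 shared bases and copies with blastn 2.17.0. Other steps used Python 3.11.15, numpy 2.4.6, pandas 2.3.3 and matplotlib 3.10.9. No hypothesis test was made. Named members were the 20 strongest, the strongest of each chromosome, the 5 farthest from genes, the 3 strongest of each noncoding class, the 5 strongest with a B box core and those beside the promoter limit. Functions were tested on simulated data. Alternatives were other lists, distances, windows and annotations.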

Additional observations from a re-analysis of the deposited data

Results flagged for a closer look

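The strongest distal intergenic candidate of the ranked list, at chrX:15810941-15811176 between Y7A5A.7 and Y7A5A.8, was in neither the conservative nor the optimal list. Its signal was 3586 pooled, 1865 in replicate 1 and 1866 in replicate 2, above that of every conservative peak (highest 3151), and 100% of the bases within 50 bp of its summit were soft-masked. In all, 76 candidates reached the lowest conservative score, 830, and overlapped no conservative peak. Of these, 62 were distal, and none of the 62 overlapped an optimal peak. The next strongest were at chrI:10947488-10947640 (807), chrIV:14780005-14780152 (641) and chrV:5284096-5284232 (623), soft-masked over 100%, 91.1% and 88.1% of the bases. Why they are absent from the conservative and optimal lists was not given in the sources used here. They are no members and enter no count of members above.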

How the results depend on the processing

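Across 20 settings the 11 summary values gave alternative values, of which 107 stayed within 1.5 times the count, the 95% interval of the share or the spread between replicates, and the cause of the other 44 was not tested. The list of a single replicate gave 112 to 144 members, 0.461% to 0.620% of distal candidates passing, a median signal of 72.0 to 75.7, overlap with replicate 1 of 65.2% and with replicate 2 of 47.9%, a median distance to a 5′ end of 1825 to 1831 bp, noncoding RNA genes near 33.3% to 33.9%, a GC content of 48.7% to 49.6% and a B box core in 4.17% to 6.25%. The stronger 50% of peaks gave 177 members, 0.674% passing, a median signal of 130.3, overlap of 66.1% and 55.4%, a median distance of 1931 bp and a B box core in 6.21%. A promoter of 250 bp gave 1.57% passing, a signal of 97.7, overlap with replicate 1 of 39.6%, 1274 bp and 30.5% upstream of both genes, and one of 1000 bp gave 2400 bp and 19.0%. The median distance was 1996 bp in the optimal list, 1808 bp with the bodies of all gene classes except piRNA genes and 2112 bp by whole peaks. With those gene bodies the noncoding share was 18.4%, and with 1000 bp it was 33.5%. Windows of 25 and 100 bp gave a GC content of 50.3% and 47.3% and a B box core in 1.09% and 6.81%. Any masked base was found in 56.9% of members and full masking in 6.54%. Leaving out the families, a choice made after seeing the data, gave 1.04% passing, a signal of 89.8, overlap with replicate 2 of 22.6%, 1818 bp and 10.2% masked. Peaks left out stayed among the candidates, so the lower shares passing, here and for the stronger 50%, follow from the removal. With RefSeq genes 366 of the 367 members stayed. Runs of 16 or 24 bases put 138 or 78 members in families. No paired analysis was possible because there is 1 group. The limits are the unknown read depth, signal scale and handling of reads that match several places.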
